A study of Caenorhabditis elegans with 6 samples.

Results

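The genes described here are the saposin-like protein genes *spp-1* to *spp-10* of the nematode *Caenorhabditis elegans*. They were taken by symbol, through the sequence name that the array gives each probe. All 10 had a probe among the 18877 genes on the array, 9 gave a signal that could be tested, and 14768 genes were tested in all. Two-colour Agilent arrays compared RNA of whole L4 larvae, the last larval stage, of *ets-4* mutants with that of wild-type N2 larvae, all grown on plates of OP50 *Escherichia coli* at 20 °C. Both mutants lack part of *ets-4*, which encodes an ETS family transcription factor and lies on chromosome X. The *ets-4(ok165)* deletion removes the coding sequence of the ETS DNA-binding domain and of the PNT domain, a protein interaction domain. The *ets-4(uz1)* deletion takes most of the ETS domain with the 3′ end of the gene and leaves the PNT domain. Each allele was a single outcrossed strain with 3 arrays, which the labels number 1 to 3, and no dye swap was made: wild type was always in Cy3 and the mutant in Cy5. A dye bias of a probe therefore adds to its ratio in both strains and cancels only in their difference. No age beyond the larval stage is given in the labels, and the study describes the larvae as late L4.

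Saposin-like proteins carry a small helical fold held by disulphide bonds that binds or inserts into lipid membranes. In vertebrates the saposins help lysosomal enzymes reach sphingolipids, and relatives such as granulysin and the amoebapores of amoebae open pores in the membranes of microbes. The worm members are also called caenopores. Several of them act in the intestine, where the worm meets the bacteria it eats, and SPP-1 and SPP-5 are known for antibacterial activity.

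The ratios are the logarithm to base 2 of mutant over wild type, so that -1 is a 2-fold lower level in the mutant. In *ets-4(uz1)* larvae *spp-3* and *spp-4* were lower than in wild type, by 3.57-fold and 3.03-fold. They were the only 2 of the 9 tested members to pass the test there, and none passed as higher. In *ets-4(ok165)* larvae no member passed, although *spp-3* and *spp-4* lay below wild type on all 3 arrays, and no member differed between the strains by the test. The test was limma on all 6 arrays, with Benjamini-Hochberg adjusted p-values across the 14768 genes and a threshold of 0.05. It called 3.53% of all genes in *ets-4(uz1)* (1.33% as lower and 2.2% as higher), 0.0948% in *ets-4(ok165)* and 0.163% between the strains. At an unadjusted p below 0.05, 2 members were lower and 1 was higher in *ets-4(ok165)*, and 1 was lower in *ets-4(uz1)* than in *ets-4(ok165)*. The same unadjusted threshold was met by 8.14% and 6.75% of all genes in these comparisons. In *ets-4(uz1)* it was met by 4 members as lower and 1 as higher, beside 9.67% and 9.89% of all genes. In RNA of whole larvae, fewer cells of a type and less RNA per cell cannot be told apart.

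**Figure D1:**
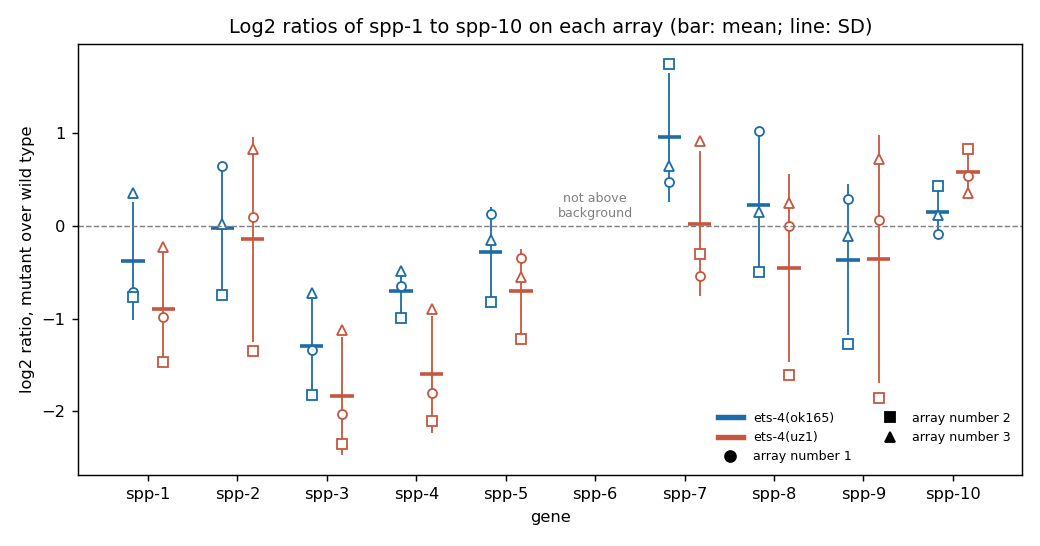
Log2 ratio of mutant over wild type (vertical axis) for each saposin-like gene (horizontal axis), with 1 point per array, a bar at the mean and a line of 1 SD (n = 3) for each strain. All 6 points of *spp-3* and of *spp-4* lie below 0, the 3 *ets-4(uz1)* points of *spp-1* and *spp-5* lie below 0, and *spp-2*, *spp-8* and *spp-9* spread to both sides of it.

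The array files hold 22562 spots each, with 1 spot for each of the 11 probes of the members. None of the 66 member spots was saturated or marked as an outlier by the scanner software. Of all spots other than controls, 68.5% to 72.9% were well above background in the wild-type channel and 72.8% to 85.4% in the mutant channel. The targeted gene *ets-4* had ratios between -3.59 and -2.72 on the 6 arrays. Both arrays of number 1 lay on 1 slide, and the arrays of numbers 2 and 3 lay on 1 slide for each strain. The arrays of number 2 were scanned on the same day in both strains, as were those of number 3. The comparison of same-numbered arrays given below is therefore within a slide for number 1, whose arrays were scanned on different days. For numbers 2 and 3 it is within a scan day, and there strain and slide cannot be told apart.

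The genes *spp-3*, *spp-2*, *spp-6*, *spp-4* and *spp-5* are neighbours on chromosome X, in this order, by the RefSeq annotation of the assembly WBcel235. The array files place their probes at 7314945 to 7315004, 7316023 to 7316082, 7317496 to 7317604, 7318339 to 7318398 and 7320001 to 7320060 on that chromosome. The build of those positions is not given in the sources used here, and all of these probes fall within the gene they are named for in the RefSeq annotation. Whether a probe lies in a coding exon or a UTR was not examined.

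*spp-3* (T08A9.7) is the first gene of this row. Its ratios in *ets-4(ok165)* were -1.34, -1.82 and -0.72 on arrays 1, 2 and 3. In *ets-4(uz1)* they were -2.03, -2.35 and -1.12. Array number 2 gave the lowest and number 3 the highest ratio in both strains, and the ranges of the strains overlap. The mean in *ets-4(uz1)* was -1.83 ± 0.64 (SD, n = 3), with a 95% confidence interval of -2.52 to -1.15 and an adjusted p of 0.0246 by limma. The mean in *ets-4(ok165)* was -1.29 ± 0.55 (SD, n = 3), a level 2.45-fold below wild type with an interval of -1.98 to -0.61. Its adjusted p was 0.376 by limma and 0.0312 in the blocked fit, which pairs the arrays of one number. Against wild type, the blocked fit takes out the spread that same-numbered arrays of both strains share. Its p-values there measure only the remaining spread, not the full spread between repeats. For *spp-3* the SD of the paired strain differences was 0.15. Rank Products, the test named in the study's methods, gave *spp-3* a percentage of false prediction, as a share, of 0.0605 in *ets-4(ok165)* against 0.0129 in *ets-4(uz1)*, both under its threshold of 0.1. That test placed 0.44% of the 18877 genes below wild type in *ets-4(ok165)* against 1.17% in *ets-4(uz1)*.

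*spp-4* (T08A9.8) lies further along the same row. Its ratios were -0.65, -0.99 and -0.48 in *ets-4(ok165)*, and -1.81, -2.10 and -0.89 in *ets-4(uz1)*. The *ets-4(uz1)* values lie below those of *ets-4(ok165)* except that array 3 of the former is above array 2 of the latter. The mean in *ets-4(uz1)* was -1.60 ± 0.63 (SD, n = 3; interval -2.19 to -1.02; adjusted p = 0.0237 by limma), and Rank Products gave a false prediction of 0.0246. The mean in *ets-4(ok165)* was -0.71 ± 0.26 (SD, n = 3; interval -1.29 to -0.12), with an unadjusted p of 0.0240 by limma that became 0.583 after adjustment. The difference between the strains was -0.89, with an interval of -1.72 to -0.07 and an unadjusted p of 0.0375 by limma. After adjustment it was 0.695, so the 1.86-fold difference between the alleles did not pass.

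The calls of *spp-3* and *spp-4* in *ets-4(uz1)* were mostly lost when an array of that strain was left out. Without *ets-4(uz1)* array 1 the adjusted p by limma became 0.141 for *spp-3* and 0.136 for *spp-4*, and without array 2 it became 0.128 and 0.120. Without array 3 it became 0.0509 for *spp-3*, while *spp-4* stayed called. Without the filter on dim probes the values were 0.0895 and 0.0821. Calls over all genes fell as well, from 522 to 60, 62 and 96 without *ets-4(uz1)* array 1, 2 or 3. Without the filter on dim probes they fell to 128. The ratios themselves stayed between -2.19 and -1.58 for *spp-3* and between -1.96 and -1.35 for *spp-4* as arrays were left out in turn.

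**Figure D2:**
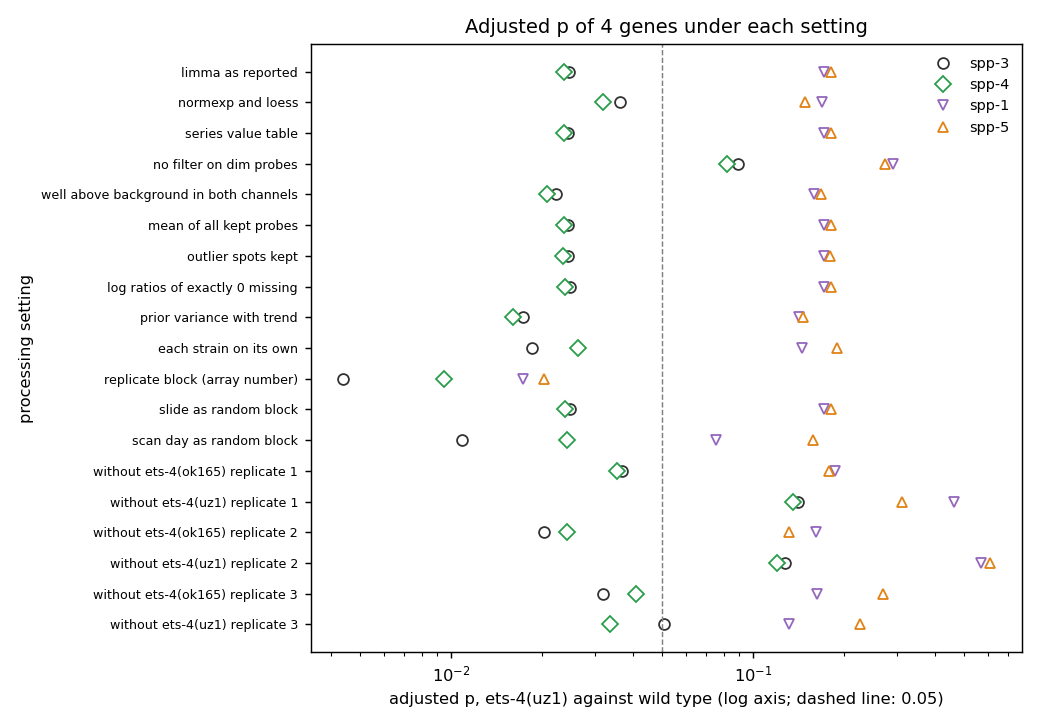
Adjusted p for *ets-4(uz1)* against wild type (horizontal, log axis; dashed line at 0.05) for *spp-3*, *spp-4*, *spp-1* and *spp-5* under each processing setting (vertical). *spp-3* and *spp-4* lie left of the line except without the dim-probe filter, without *ets-4(uz1)* array 1 or 2 and, for *spp-3*, without array 3. *spp-1* and *spp-5* lie left of it only in the fit blocked on array number.

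*spp-5* (T08A9.9), which encodes a pore-forming protein of the intestine, is the last gene of the row. Its ratios in *ets-4(ok165)* were 0.13, -0.82 and -0.15, and in *ets-4(uz1)* they were -0.34, -1.22 and -0.55. All 3 *ets-4(uz1)* arrays thus lay below wild type and the *ets-4(ok165)* arrays lay on both sides. The mean in *ets-4(uz1)* was -0.70 ± 0.46 (SD, n = 3; interval -1.28 to -0.13), a 1.63-fold lower level that did not pass (adjusted p = 0.181 by limma) except in the blocked fit, where the adjusted p was 0.0203.

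*spp-2* (T08A9.12) lies between *spp-3* and *spp-6* and had a different pattern. Its ratios were 0.64, -0.75 and 0.02 in *ets-4(ok165)*, and 0.09, -1.35 and 0.83 in *ets-4(uz1)*. Only array number 2 was below wild type in each strain. The means were -0.03 ± 0.70 and -0.14 ± 1.11 (SD, n = 3 each) and neither passed. The interval in *ets-4(uz1)* ran from -1.13 to 0.85, which takes in both a fall and a rise of a size seen at other members. *spp-6* (T08A9.10) was not well above background in either channel on any array. Its processed signals were 28.2 to 77.7 in wild type and 12.5 to 32.6 in the mutants, and no ratio is given.

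**Figure D3:**
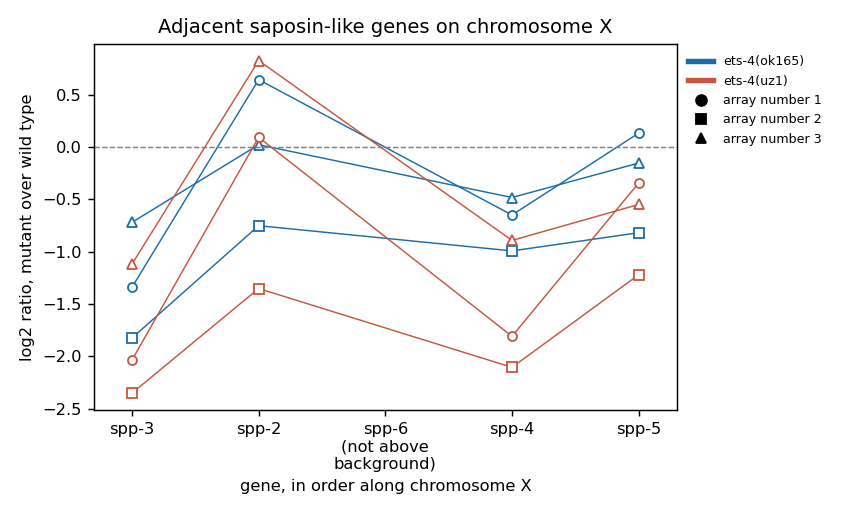
Log2 ratio of mutant over wild type (vertical axis) for the 5 adjacent genes in their order along chromosome X (horizontal axis), with 1 line per array. All 6 lines are higher at *spp-2* than at *spp-3* and at *spp-4*, and within each strain the line of array number 2 runs lowest at all 4 measured genes.

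*spp-1* (T07C4.4) lies apart from the row, on chromosome III, and encodes an antibacterial protein of the intestine. Its ratios in *ets-4(ok165)* were -0.72, -0.77 and 0.36. In *ets-4(uz1)* they were -0.99, -1.47 and -0.23. Array number 3 was the highest in both strains, and that of *ets-4(ok165)* was the only one above wild type. The mean in *ets-4(uz1)* was -0.90 ± 0.62 (SD, n = 3; interval -1.61 to -0.18), a 1.86-fold lower level with an adjusted p of 0.171 by limma and of 0.0173 in the blocked fit. In *ets-4(ok165)* the mean was -0.38 ± 0.64 (SD, n = 3; adjusted p = 0.777 by limma). The array files place this probe at 10355034 to 10355093 on chromosome III, 5 bases outside *spp-1* in the RefSeq annotation and within the neighbouring gene T07C4.3. Of the 17 neighbouring probes looked up, 15 fall within the genes they are named for, and the build of the positions is not given. The values may therefore be those of T07C4.3, which is not settled here.

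*spp-7* (ZK616.9) on chromosome IV was the member with the highest mean in *ets-4(ok165)*. Its ratios there were 0.47, 1.75 and 0.65, all above wild type, with a mean of 0.96 ± 0.69 (SD, n = 3; interval 0.14 to 1.77). The unadjusted p was 0.0269 and the adjusted p 0.584 by limma. In *ets-4(uz1)* the ratios were -0.54, -0.30 and 0.91, on both sides of wild type, and the mean was 0.02. The difference of -0.93 between the strains did not pass (interval -2.08 to 0.22; adjusted p = 0.811 by limma). The 6 pharynx markers had medians of 0.41, 1.52 and 0.14 on the *ets-4(ok165)* arrays and of -0.56, 0.21 and 0.53 on those of the other strain, highest on the array where *spp-7* was highest in each strain. Over the arrays of *ets-4(ok165)* their median was 0.74, and 2 of the 6, *myo-1* among them (1.19, adjusted p = 0.376 by limma), were higher at an unadjusted p below 0.05. That threshold was met by 8.14% of all genes in this strain, in either direction. The 7 epidermis markers were also highest on the array where *spp-7* was highest in each strain. Their medians were 0.31, 0.45 and 0.02 in *ets-4(ok165)*, and 0.88, 0.47 and 1.06 in *ets-4(uz1)*. Markers of the other tissues did not have this order in both strains. The part of any tissue in the values of *spp-7* was not tested.

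*spp-8* (C28C12.5) and *spp-10* (C28C12.7) are neighbours elsewhere on chromosome IV. The ratios of *spp-8* ran from -0.49 to 1.03 in *ets-4(ok165)* and from -1.61 to 0.25 in *ets-4(uz1)*, with the lowest value on array number 2 each time, and neither mean passed. *spp-10* has 2 probes, which differ. The brighter probe, named for transcript C28C12.7a and used in the test, gave -0.09, 0.43 and 0.11 in *ets-4(ok165)*, and 0.54, 0.83 and 0.36 in *ets-4(uz1)*. All 3 *ets-4(uz1)* arrays were above wild type, with a mean of 0.58 ± 0.24 (SD, n = 3; interval 0.17 to 0.98), an adjusted p of 0.130 by limma and one of 0.0356 in the blocked fit. The dimmer probe, named for C28C12.7b, gave 0.26, -0.80 and -0.49 in *ets-4(ok165)*, and -0.60, -1.66 and -0.43 in *ets-4(uz1)*. All 3 of its *ets-4(uz1)* arrays were below wild type. Its mean there was -0.90 ± 0.67 (SD, n = 3), with an adjusted p of 0.163 by limma over 15579 probes and of 0.0338 in its blocked form. A level of the gene as a whole therefore has no settled direction: the mean over both probes was -0.16 in *ets-4(uz1)*. The brighter probe lay above the dimmer one on 5 of the 6 arrays, by 0.61 to 2.50, and below it on *ets-4(ok165)* array 1. Among the 714 genes with several probes tested, the probes of a gene lay a median of 0.16 apart in *ets-4(uz1)*, and *spp-10* with 1.47 was among the 5 genes (0.7%) with a distance at least as large. The array files place the probes at 8478075 to 8478134 and 8480471 to 8480576 on chromosome IV, both within *spp-10* in the RefSeq annotation.

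**Figure D4:**
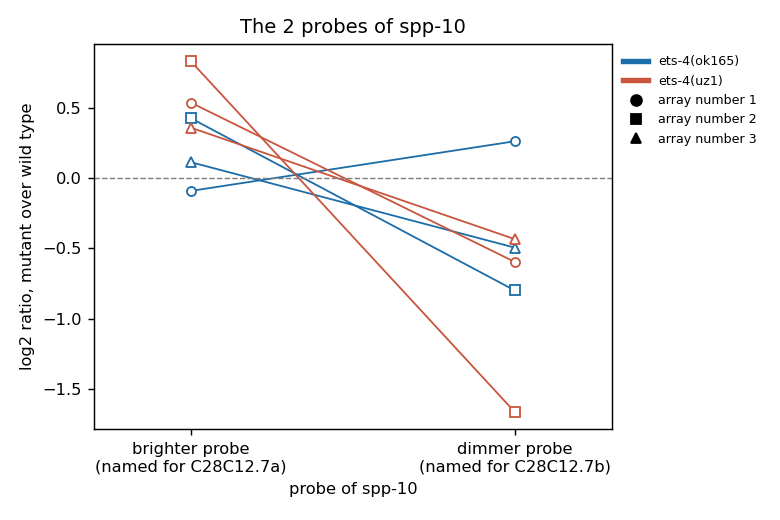
Log2 ratio of mutant over wild type (vertical axis) at the brighter and the dimmer probe of *spp-10* (horizontal axis), with 1 line per array. The lines fall from the brighter to the dimmer probe on 5 of 6 arrays, and the 3 *ets-4(uz1)* lines cross 0.

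*spp-9* (T25C12.2) was dim, with processed signals of 101 to 276 in wild type, and its probe was not well above background in the wild-type channel of *ets-4(ok165)* array 1. Its ratios ran from -1.28 to 0.29 in *ets-4(ok165)* and from -1.86 to 0.72 in *ets-4(uz1)*, and no mean passed. The array's position for this probe, 11490339 to 11490398 on chromosome X, falls within *spp-21* in the RefSeq annotation and outside *spp-9*. All 12 neighbouring probes looked up fall within the genes they are named for, so the values may be those of *spp-21*.

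The members varied together from array to array. In 7 of the 9 (*spp-1*, *spp-2*, *spp-3*, *spp-4*, *spp-5*, *spp-8* and *spp-9*, 77.8%) array number 2 gave the lowest ratio in both strains, against 24.7% of the 14589 genes with a value on every array. The 9 intestine marker genes with such values all had this order as well. The wild-type channel of the number 3 arrays also stood apart. Relative to the 75th percentile of each array, the wild-type level on the number 3 arrays was lower than the mean of numbers 1 and 2 for 7 of the 9 members. On the log2 scale the differences were -1.96 for *spp-3*, -1.63 for *spp-1*, -1.5 for *spp-5*, -1.06 for *spp-8*, -1.04 for *spp-4*, -0.65 for *spp-2* and -0.51 for *spp-9*. The median over the 10 intestine markers was -1.20, and the median over all genes tested was -0.09, so a value below 0 was common. Of the genes tested, 0.83% to 9.52% lay at or below the values of *spp-3*, *spp-1*, *spp-5*, *spp-8* and *spp-4*. For *spp-2* and *spp-9* the shares were 22.2% and 28.5%. *spp-7* and *spp-10* went the other way, at 0.34 and 0.17. The mutant channel was in part lower on the number 3 arrays as well. Relative to the same percentile, *spp-1*, *spp-3* and *spp-5* had their lowest mutant level on number 3 in both strains. For *spp-5* it was 4.85 and 4.26 there, against 5.21 to 6.64 on the others. The other members did not have this order in both strains, and *spp-4* in *ets-4(uz1)* was highest on number 3.

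The processed signals of *spp-3* show the lower levels on number 3 in both channels. In wild type they were 45918, 58440 and 17946 on *ets-4(ok165)* arrays 1 to 3, and 72261, 64297 and 17096 on the *ets-4(uz1)* arrays. In the mutants they were 18152, 16504 and 10902 in *ets-4(ok165)*, and 17636, 12606 and 7872 in *ets-4(uz1)*. The wild-type signal on both number 3 arrays lay close to the mutant signals of the other arrays, and on these 2 arrays the ratio of *spp-3* was nearest to 0. Likewise *spp-4* had wild-type signals of 10258 and 11364 on the number 3 arrays and of 17138 to 22159 on the others. The part of this variation in the means was not tested.

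**Figure D5:**
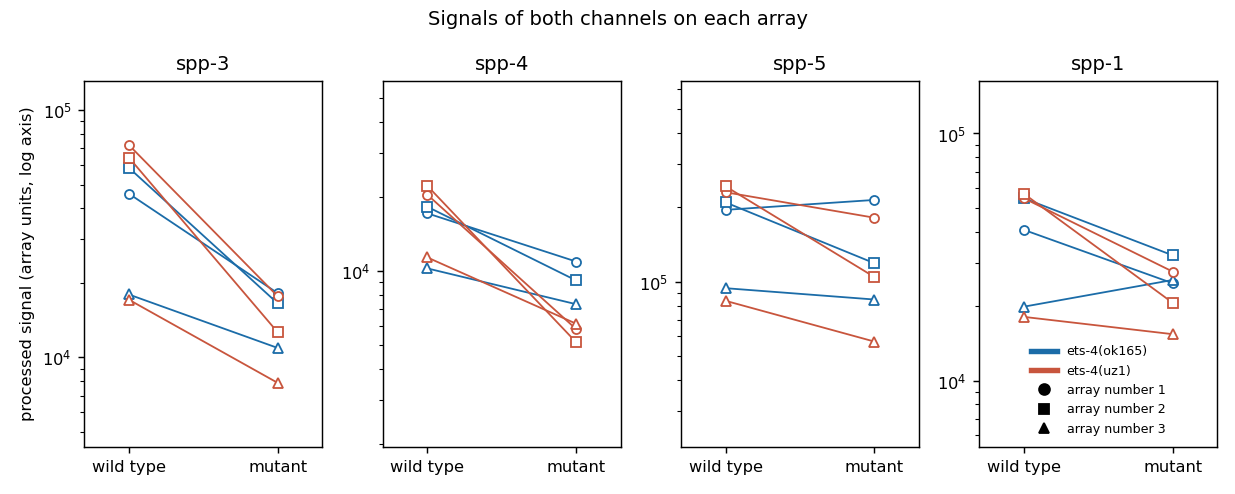
Processed signal (vertical log axes, array units) in the wild-type and mutant channels (horizontal) of *spp-3*, *spp-4*, *spp-5* and *spp-1*, with 1 line per array; each panel has its own scale, spanning the same number of folds. The number 3 arrays (triangles) start lowest in wild type in all 4 panels, and every line falls for *spp-3* and *spp-4*.

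Set against each other within a number, *ets-4(uz1)* lay below *ets-4(ok165)* in all 3 pairs for *spp-1*, *spp-3*, *spp-4* and *spp-5*, which are 4 of the 9 members, and above it in all 3 for the brighter probe of *spp-10*. Over all genes 20.8% were lower and 23.8% were higher in all 3 pairs. The paired differences of *spp-5* were -0.48, -0.40 and -0.40, and those of *spp-3* were -0.70, -0.53 and -0.40. Those of *spp-4* were larger on numbers 1 and 2, at -1.16, -1.11 and -0.41, and those of *spp-1* were -0.27, -0.70 and -0.59. None of these differences passed in the blocked fit, which called 0.623% of all genes between the strains and gave *spp-4*, the lowest among them, an adjusted p of 0.162 by limma. That fit passed 5 members in *ets-4(uz1)*: *spp-1*, *spp-3*, *spp-4* and *spp-5* as lower and the brighter probe of *spp-10* as higher. The same fit called 15.5% of all genes in that strain, 8.33% as lower and 7.2% as higher. In *ets-4(ok165)* it called 1 member, *spp-3*, and 0.332% of all genes.

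Counted by sign alone, 4 of the 9 tested members were below wild type on all 3 *ets-4(uz1)* arrays, against 19.2% of all genes, and 2 of 9 on all 3 *ets-4(ok165)* arrays, against 15.1%. A further 1 member was above wild type on all 3 arrays in each strain (the brighter probe of *spp-10* in *ets-4(uz1)*, *spp-7* in *ets-4(ok165)*), against 20.6% and 14.8% of all genes. The median ratio of the 9 was -0.45 in *ets-4(uz1)* against -0.28 in *ets-4(ok165)*, beside medians of 0.03 and -0.02 over all genes tested. The 4 tested genes of the X chromosome row had medians of -1.15 and -0.49 in these strains, and the 5 members elsewhere had -0.36 and 0.15.

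The closest patterns to *spp-3* over the 6 arrays, by the root mean square difference of the ratios, were those of *xbx-4* (0.17), *acox-1.5*, an acyl-CoA oxidase gene (0.24), and *clec-52*, a C-type lectin gene (0.30). Their means in *ets-4(uz1)* were -1.82, -1.72 and -1.81. The mean of *xbx-4* was -0.45 with another background correction, normexp with loess. The closest to *spp-4* were *ltah-1.2* (0.19), F43C1.5 (0.20) and *fut-2*, a fucosyltransferase gene (0.28), with means of -1.49, -1.45 and -1.64 in *ets-4(uz1)*. These genes were named for likeness of their values only.

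Of the remaining saposin-like genes *spp-11* to *spp-27*, 11 of 17 were on the array under their own name and 7 could be tested. In *ets-4(uz1)* 2 of the 7 were called lower and none higher by limma. At an unadjusted p below 0.05, 3 were lower and 2 were higher, beside 9.67% and 9.89% of all genes. The higher ones were *spp-13* (0.78) and *spp-15* (0.41). *spp-17* had a mean of -1.33 ± 0.54 (SD, n = 3; adjusted p = 0.0396 by limma), 2.51-fold below wild type, with ratios of -1.31, -1.88 and -0.80. *spp-14* had a mean of -0.87 ± 0.32 (SD, n = 3; adjusted p = 0.0497 by limma). Its call rests on the brighter of its probes, since the other gave 0.21. Both calls were lost when any one of the *ets-4(uz1)* arrays was left out, with adjusted p up to 0.182 for *spp-17* and 0.244 for *spp-14* by limma. *spp-17* also lost its call without *ets-4(ok165)* array 3 (adjusted p = 0.0714), and *spp-14* lost its call without any one *ets-4(ok165)* array, with adjusted p of at least 0.0539. The blocked fit also called *spp-16* lower (-0.91, adjusted p = 0.0156). None of the 7 passed in *ets-4(ok165)* or between the strains by limma, where 1 and 0 of them had an unadjusted p below 0.05. The median of the 7 was -0.37 in *ets-4(uz1)* against -0.01 in *ets-4(ok165)*.

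Other genes that share a setting with the saposin-like proteins gave mixed results. Of 10 sphingolipid hydrolase genes, *gba-4*, a glucosylceramidase gene, fell in *ets-4(uz1)* (-1.41 ± 0.61, SD, n = 3; adjusted p = 0.0413 by limma), and *gana-1*, an alpha-galactosidase gene, rose (1.5 ± 0.23, SD, n = 3; adjusted p = 0.0175 by limma). Their adjusted p rose to at most 0.168 and 0.113 when an array was left out, and either call was lost without any one *ets-4(uz1)* array, that of *gba-4* also without *ets-4(ok165)* array 1 or 3 (adjusted p = 0.0559 and 0.0675). The blocked fit called 3 of the 10 lower and 2 higher in *ets-4(uz1)*, beside 8.33% and 7.2% of all genes. It added the acid sphingomyelinase genes *asm-2* (-1.07, adjusted p = 0.0132) and *asm-3* (-0.55, adjusted p = 0.0366) as lower and *gba-3* (0.55, adjusted p = 0.0351) as higher. It also called *asm-3* lower in *ets-4(uz1)* than in *ets-4(ok165)*, by -1.45 (adjusted p = 0.0450). None of the 8 lysosome genes and none of the 5 tested antibacterial factor genes passed in any comparison by limma. At an unadjusted p below 0.05 in *ets-4(uz1)*, 2 of the lysosome genes and 2 of the antibacterial factor genes were higher and none was lower. Of all genes 9.89% were higher and 9.67% lower at that threshold. The blocked fit called 1 gene of each list higher in that strain, *scav-3* (adjusted p = 0.0245) and *abf-5* (adjusted p = 0.0136). The lowest adjusted p of the lysosome genes without the block were those of *scav-3* (0.66, adjusted p = 0.0631) and *ctns-1* (0.39, adjusted p = 0.189), both by limma in *ets-4(uz1)*. Those of the antibacterial factor genes, which encode defensin-like peptides, were *abf-5* (2.48, adjusted p = 0.0569) and *abf-2* (0.74, adjusted p = 0.184), by limma in the same strain.

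None of the 13 tested regulators of intestinal immune genes passed in any comparison by limma. The blocked fit called 2 of them lower in *ets-4(uz1)*, *elt-7* (-0.81, adjusted p = 0.0205) and *sma-3* (-0.60, adjusted p = 0.0395), beside 8.33% of all genes. The lowest adjusted p by limma were those of *pmk-1*, the p38 kinase gene (-0.68, adjusted p = 0.233), and *sek-1*, the gene of its activating kinase (0.40, adjusted p = 0.307), in *ets-4(uz1)*. Of these regulators 1 was lower and none was higher in *ets-4(uz1)* at an unadjusted p below 0.05, beside 9.67% and 9.89% of all genes.

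The tissue markers moved as follows. The 10 intestine markers, all of them tested, had a median ratio of -0.46 in *ets-4(uz1)*, close to the -0.45 of the saposin-like members, and of -0.10 in *ets-4(ok165)*. None of them passed by limma, and 2 were lower in *ets-4(uz1)* at an unadjusted p below 0.05, beside 9.67% of all genes. The blocked fit called 3 (*elt-7*, *pho-1* and *mtl-2*) lower in that strain, beside 8.33% of all genes. The lowest adjusted p by limma were those of *pho-1* (-0.99, adjusted p = 0.0626) and *mtl-2* (-0.95, adjusted p = 0.121) in *ets-4(uz1)*. Array by array, the median of the 9 markers with all values was -0.24, -1.03 and -0.12 in *ets-4(uz1)* and 0.07, -0.53 and 0.27 in *ets-4(ok165)*. On each of the 6 arrays *spp-3* and *spp-4* lay below that median. They are the tested members with the lowest means in both strains, so this order was largely set by their choice. Nothing is drawn from it. The 7 epidermis markers had a median of 0.86 in *ets-4(uz1)*, with *dpy-7* (1.63, adjusted p = 0.0320 by limma) and *wrt-2* (1.02, adjusted p = 0.0448 by limma) called higher; both calls were lost without any one *ets-4(uz1)* array, with adjusted p up to 0.163 and 0.182, and that of *wrt-2* also without *ets-4(ok165)* array 1 (adjusted p = 0.0603). Medians in *ets-4(uz1)* were 0.61 for the 8 germ line markers, 0.41 for the 6 tested body wall muscle markers, 0.05 for the 8 neuron markers and 0.03 for the 6 pharynx markers, and no marker of these 4 tissues passed by limma. At an unadjusted p below 0.05, 2, 3, 1 and 0 of them were higher and none was lower in that strain, beside 9.89% and 9.67% of all genes. The blocked fit called the muscle markers *myo-3*, *unc-15* and *mlc-1*, the neuron marker *snb-1* and the germ line marker *pgl-1* higher and the germ line marker *gld-1* lower there. That fit called 7.2% of all genes higher and 8.33% lower in this strain. In *ets-4(ok165)* the medians were 0.74 for pharynx, 0.22 for neurons, 0.21 for epidermis, 0.03 for body wall muscle and -0.20 for germ line, and no marker passed in either fit. The study chose late L4 larvae, in part because they are easy to stage. It also reports slower larval growth in both mutants, so the stage within L4 may still differ from wild type. The part of tissue makeup or of stage in the ratios of the members was not tested.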

How the data were processed

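The files were the scanner output of 6 two-colour arrays. The authors made the log10 ratios and processed intensity values with Agilent Feature Extraction (version 8.5.1.1 on 2 arrays and 9.1.3.1 on 4, per the file headers), by background subtraction and lowess dye normalization within each array. The deposited table of log2 values had the same ratios (slope 1, median 0). Ratios were converted to log2, spots marked as outliers were left out, and a probe was kept where 3 or more of the 6 arrays had it well above background in one channel or the other. The brightest kept probe stood for a gene. Of 18877 genes on the array, 18124 matched RefSeq by sequence name and 14768 were tested with limma 3.58.1 in R 4.3.3, in 1 fit of both strains (residual degrees of freedom 4), with Benjamini-Hochberg adjustment over all genes. Where levels were compared between arrays, signals were set against the 75th percentile of all probes in the same channel of the array. The 3 arrays per strain limit the precision. The study names the arrays as independent repeats.

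Same-numbered arrays deviated together: the correlation of the deviations from the strain means was 0.51, 0.69 and 0.29 over 14589 genes for numbers 1, 2 and 3. The numbers were therefore taken to pair the arrays, and a fit blocked on array number (the blocked fit) is given where it changes a call. In tests against wild type, the p-values of that fit leave out the spread between repeats that both strains share. Alternatives were normexp with loess, the deposited value table, other filters, the mean over probes, Rank Products with 100 permutations, slide or scan day as a block, and each array left out. The members and gene lists were chosen with earlier results of these data known. Named genes are all members, listed genes past the threshold or otherwise the 2 of lowest adjusted p per list, and the 3 closest patterns to each called member; listed genes called by the blocked fit alone are named besides.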

Additional observations from a re-analysis of the deposited data

How the results depend on the processing

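The 9 tested members kept their side of the threshold in all comparisons under most settings. In *ets-4(uz1)* the count of members called was 2 and became 0 without the filter on dim probes, 5 in the fit with a replicate block (array number) and 0 to 1 when an array of that strain was left out. Calls over all genes moved too. They went from 522 to 128 without that filter, 2294 with the block and 60 to 96 without such an array. In *ets-4(ok165)* the count was 0 and became 1, *spp-3*, with the replicate block and by Rank Products. The block raised the calls over all genes there from 14 to 49, and Rank Products placed 0.44% of all genes below wild type. Between the strains it stayed 0 under every setting run. The block changed no other call of a member.

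Directions turned only for means that had not passed in the fit without the block. Among them is the tested probe of *spp-10* in *ets-4(uz1)*, which passed as higher in the blocked fit. For *spp-10* the mean over both probes gave -0.10 in *ets-4(ok165)*, -0.16 in *ets-4(uz1)* and -0.0641 for their difference, and the dimmer probe alone, an alternative chosen after seeing the data, gave -0.34, -0.90 and -0.55. With scan day as a random block *spp-2* became 0.025 and *spp-7* -0.0695 in *ets-4(uz1)*, and the strain difference of *spp-2* became 0.0352. That difference was 0.10 with scan day as a fixed block. The strain difference of *spp-9* became -0.23 with slide as a fixed block. With arrays left out in turn, *spp-2* ranged from -0.36 to 0.33 in *ets-4(ok165)*, from -0.63 to 0.46 in *ets-4(uz1)* and from -0.60 to 0.49 between strains. *spp-8* ranged from -0.17 to 0.59 in *ets-4(ok165)* and from -0.80 to 0.13 in *ets-4(uz1)*. *spp-9* ranged from -0.69 to 0.0909, from -0.90 to 0.39 and from -0.53 to 0.76 in these comparisons. *spp-7* ranged from -0.42 to 0.31 in *ets-4(uz1)*. The cause of these changes was not tested, beyond the disagreement of the probes of *spp-10*. For *spp-6* and *spp-9* the signal near background limits what can be said, and without a dye swap a bias of the dye in a probe cannot be told apart from a change in both mutants.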
